A study of Rattus norvegicus with 44 samples.

Results

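Cadherins and claudins were followed in whole ovaries from 4-day-old female Sprague-Dawley rats that had been kept in organ culture for 2 days. The members were the genes whose single symbol in the platform annotation is Cdh or Cldn followed only by a number, which gave 15 cadherins and 22 claudins, 37 of the 14324 genes with a single symbol. Probe sets without a symbol there were not analysed here, and they include at least 1 further cadherin that the study names, so the 37 are not every cadherin and claudin on the array. Each of the 37 was measured by 1 probe set, and all 37 symbols matched a rat RefSeq gene by gene number. Gene expression was measured on Affymetrix Rat Gene 1.0 ST arrays, on which signal is given on the log2 scale.

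The larger set held 38 arrays: 14 untreated controls and 3 samples each of ovaries given human AMH, human BMP4, rat FGF2, human FGF7, rat GDNF, mouse KITLG, rat LIF or the rat PDGF-AB heterodimer (labelled PDGFab), each at 50 ng/ml. The smaller set held 3 samples given human CTGF at 50 ng/ml and 3 untreated controls of its own. A sample was a pool of 2 or 3 ovaries from 1 culture well, taken from different pups of a litter, so the p-values below measure the spread between such pools. All groups were of the same strain and age. Whole ovaries hold oocytes, pregranulosa cells, stroma, vessels and surface epithelium together, and fewer cells of a type cannot be told apart from less RNA per cell. The oocyte markers (9 of 9 measured) and pregranulosa markers (8 of 8) were above background in the controls. Array medians ran from 5.93 to 6.01 in the larger set and from 6.29 to 6.35 in the smaller, which the authors preprocessed separately, so no level was compared across the sets.

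Classical cadherins are single-pass proteins of the adherens junction that bind their like on the next cell through calcium-dependent ectodomains and hold actin through catenins inside the cell. Claudins span the membrane several times and form the strands of the tight junction, some sealing the space between cells and others leaving pores for ions. In the ovary, adherens junctions join oocyte and pregranulosa cells and the cells of the surface epithelium, while tight junctions are best known from epithelia and blood vessels.

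The promoters shown here belong to the 3 claudins with AMH values described below whose promoter was in the table used, and to Cdh6, the cadherin with the largest difference. They were chosen after the values had been seen. CAGGTG is the core of the E box that Snail and Zeb repressors bind in the E-cadherin gene. Capitals mark it in either orientation (CAGGTG or its complement CACCTG). The bases are the 250 upstream of the start in RefSeq on GRCr8, 5′ to 3′ on the gene's strand. Cldn7 lies at chr10:55188420-55188669 on the plus strand, Cldn6 at chr10:13215558-13215807 on the plus strand, Cldn3 at chr12:27346548-27346797 on the minus strand and Cdh6 at chr2:63952288-63952537 on the minus strand.
Cldn7: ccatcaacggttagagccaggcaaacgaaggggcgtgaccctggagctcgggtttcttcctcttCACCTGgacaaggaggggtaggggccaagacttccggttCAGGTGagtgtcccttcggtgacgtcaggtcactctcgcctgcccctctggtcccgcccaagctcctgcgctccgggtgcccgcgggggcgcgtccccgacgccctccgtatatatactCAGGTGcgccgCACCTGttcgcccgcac
Cldn6: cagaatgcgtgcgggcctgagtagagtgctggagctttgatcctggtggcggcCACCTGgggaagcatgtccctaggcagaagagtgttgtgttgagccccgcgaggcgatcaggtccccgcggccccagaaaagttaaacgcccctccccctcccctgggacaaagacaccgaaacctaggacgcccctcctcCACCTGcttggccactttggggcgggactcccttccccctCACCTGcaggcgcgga
Cldn3: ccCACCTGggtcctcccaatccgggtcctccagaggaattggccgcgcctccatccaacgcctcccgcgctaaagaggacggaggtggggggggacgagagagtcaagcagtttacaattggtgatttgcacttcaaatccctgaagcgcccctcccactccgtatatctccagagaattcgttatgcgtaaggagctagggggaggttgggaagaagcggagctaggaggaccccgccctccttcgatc
Cdh6: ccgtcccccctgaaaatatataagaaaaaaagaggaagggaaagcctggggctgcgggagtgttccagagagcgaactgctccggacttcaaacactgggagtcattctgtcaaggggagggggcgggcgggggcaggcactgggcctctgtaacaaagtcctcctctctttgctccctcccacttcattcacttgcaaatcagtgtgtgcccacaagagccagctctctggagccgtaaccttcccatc
The Cldn7 stretch held 4 matches, the Cldn6 stretch 3 and the Cldn3 stretch 1, while Cdh6 had none. Promoters of 27 of the 37 members were in the table, and 4 of the 27 held the motif (Cldn3, Cldn6, Cldn7 and Cldn14), 14.8% of them against 15.9% of all 33469 promoters. The other motifs searched, chosen like the first with the values known, were AACNGGTT (a Grainyhead-like site), found in 0 of 27 member promoters and 1.76% of all, GGCGCC (a SMAD site, a palindrome), in 1 of 27 (Cdh23) and 8.69% of all, and CCGGAA (an ETS core), in 1 of 27 (Cldn7) and 12.6% of all, both strands being read for each. These are matches of letters and not measured binding.

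In untreated ovaries, 15 of the 37 genes exceeded the background level, set at 5.07 as the 95th percentile of 1127 olfactory receptor probe sets. That was 40.5% of the members, against 62.2% of all probe sets. The 6 cadherins above it were the type I cadherins Cdh1, Cdh2 and Cdh15, the type II cadherins Cdh5 and Cdh6, and Cdh13. The 9 claudins were Cldn1, Cldn3, Cldn4, Cldn5, Cldn6, Cldn11, Cldn12, Cldn15 and Cldn23. With the 90th percentile, 4.87, as the limit, 18 members passed. The remaining 22, among them the kidney cadherin Cdh16 and the intestinal cadherin Cdh17, were not above background in the controls, which does not show that they are absent.

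Among the cadherins, Cdh1 (E-cadherin, of epithelia and oocytes) ran from 6.47 through a median of 7.45 to 7.92 in the 14 controls. Cdh2 (N-cadherin, of mesenchymal and granulosa cells) ran from 6.38 through 7.10 to 7.33. Both were well clear of background in every control. Cdh5 (VE-cadherin, of endothelium) was more variable, from 5.65 through 6.90 to 7.70, and Cdh13 (a cadherin anchored by lipid, without a cytoplasmic tail) ran from 7.05 through 7.83 to 8.27. Cdh15 (M-cadherin of muscle), from 4.75 through 5.17 to 5.83, lay close to the limit.

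Among the claudins, Cldn12 (which lacks the usual tail motif for plaque proteins) ran from 8.20 through 8.65 to 8.94. Cldn5 (the main claudin of endothelial tight junctions) ran from 6.69 through 7.22 to 7.56, and Cldn11 (of Sertoli cells and myelin) from 6.05 through 6.51 to 7.11. Cldn1 (of the epidermal barrier) had the largest spread, from 5.48 through 6.11 to 8.21 with an SD of 0.85, larger than that of 99% of all probe sets above background. Cldn15 (a pore-forming claudin) ran from 6.28 through 6.93 to 8.22 (SD 0.53, above 95.8% of probe sets), and Cdh5 had an SD of 0.52 (above 95.3%). The median SD was 0.31 over the 15 members above background and 0.225 over all probe sets above background.

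No cadherin or claudin passed the adjusted threshold in any of the 9 comparisons with controls (limma, Benjamini-Hochberg over 27342 probe sets, 0.05). Few probe sets of any kind did so: 0% with AMH and CTGF, 0.274% with BMP4, 0.94% with FGF2, 0.0805% with FGF7, 1.89% with GDNF, 0.0439% with KITLG, 0.267% with LIF and 0.234% with PDGFab. The counts of members at an unadjusted p under 0.05, each with the share of all probe sets, were 7 for AMH (5.08%), 2 for BMP4 (8.97%), 4 for FGF2 (12.2%), 4 for FGF7 (7.57%), 5 for GDNF (17.1%), 0 for KITLG (8.66%), 4 for LIF (7.25%), 1 for PDGFab (9.79%) and 3 for CTGF (3.12%). The study's own criteria were read as well. The p was taken here from limma, where the methods used a t-test. They ask for a p no larger than 0.05 before adjustment, linear group means that differ by 10 or more, and a treated-to-control quotient of these means that is no smaller than 1.2 or no larger than 0.83. By these criteria 11 differences were found in 7 genes, all of them higher in the treated ovaries. The share of members was above that of all probe sets with AMH, FGF7 and CTGF, and below it with the other growth factors. Over all probe sets the share ran from 0.761% with CTGF to 6.79% with FGF2. The share of higher calls over all probe sets is given for AMH only, so the common direction is not read as a result. With the methods' t-test in place of limma there were 12 differences on linear values, Cdh1 with AMH being the added one. On log2 values there were 10, Cdh2 with FGF2 being the one lost, and none of either was lower. Under the other settings, samples left out included, 10 differences were lower by the criteria in at least 1 setting, with Cldn11 with LIF the most often (6 settings) and Cdh1 with PDGFab next (4). These counts have no share of lower calls over all probe sets beside them, so they are not read as a result about the members. Each growth factor was set against all 14 controls here, since the controls of its own culture days are not labelled. The study's own lists, by contrast, hold Cdh6 and Cldn1 as lower with FGF2, and do not hold Cdh2 there. They also hold Cdh3, which has no symbol in the annotation used and was not analysed here, as lower with AMH. For AMH they hold Cdh1 as higher and none of Cdh6, Cldn4, Cldn7, Cldn6 and Cldn3. For FGF7 they hold neither Cdh6 nor Cldn7. The 11 are described below as differences that did not survive adjustment.

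**Figure D1:**
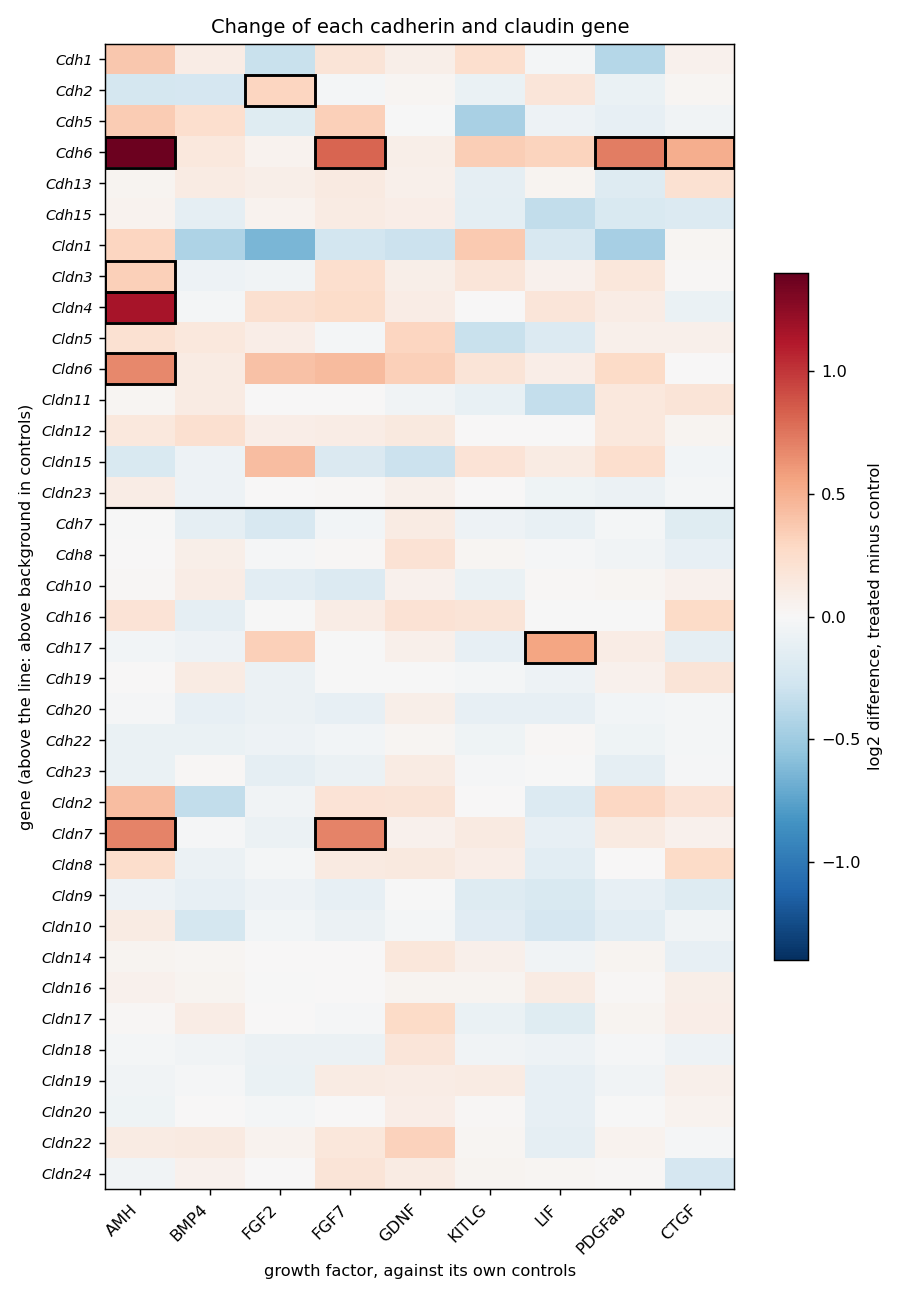
Log2 difference (treated minus control, colour) of each of the 37 genes (vertical axis) with each growth factor (horizontal axis), the 15 genes above background in controls standing over the line. Boxes mark the 11 differences that met the study's criteria, 5 of them in the AMH column and 4 in the Cdh6 row, and no cell passed the adjusted threshold.

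AMH, the hormone that holds primordial follicles back, gave the most. Cdh6, Cldn4, Cldn7, Cldn6 and Cldn3 met the criteria, 5 of 37 members (13.5%), where 2.15% of all probe sets did so in either direction and 1.42% in the higher direction. At an unadjusted p under 0.05 the share was 18.9% of members, 7 higher and 0 lower, against 5.08% of all probe sets. At the adjusted threshold AMH gave 0 members and 0 of all probe sets. The fit of the AMH samples and controls alone, and the methods' t-test on linear values, each called 1 member there, Cdh6 in both, where 0.0366% and 0.0293% of all probe sets were called. AMH replicate 1 was the highest of the 3 AMH samples for all 5 genes, and without it 2 members met the criteria, against 1.77% of all probe sets.

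Cdh6, or K-cadherin, is a type II cadherin of kidney tubules and of some embryonic epithelia. Its level was 7.40, 6.77 and 6.68 in the AMH samples, and from 4.81 through 5.61 to 6.19 in the controls. None of the AMH samples overlapped the controls, a separation seen for 0.135% of all probe sets. The difference was 1.37 on the log2 scale (SE 0.29, 95% interval 0.79 to 1.95, limma adjusted p = 0.236), and the exact permutation test over samples gave p = 0.00147, the smallest that 3 samples against 14 allow. Without AMH replicate 1 the difference was 1.15.

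Cldn4, a sealing claudin of simple epithelia, measured 8.21, 6.28 and 5.82 with AMH against 5.21 through 5.67 to 5.89 in the controls. Replicates 1 and 2 were above every control, and replicate 3 was within their range. The difference was 1.15 (SE 0.24, limma adjusted p = 0.236, exact permutation p = 0.00294). It rested largely on replicate 1, without which it was 0.43, while without replicate 3 it was 1.63 with an adjusted p of 0.00378.

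Cldn7, which in other epithelia is found along the lateral membrane, was not above background in the controls (3.82 through 4.08 to 4.80) and measured 5.18, 4.83 and 4.48 with AMH. The difference was 0.70 (SE 0.20, limma adjusted p = 0.737), with 2 of 3 samples above the highest control. Cldn6, a claudin of embryonic epithelia, measured 7.88, 7.00 and 7.00 against 5.97 through 6.63 to 7.13. Its difference was 0.67 (SE 0.22, limma adjusted p = 0.782) and 0.37 without replicate 1. Cldn3, a sealing claudin that lies next to Cldn4 on chromosome 12 with 0 coding genes between, measured 6.18, 5.97 and 5.62 against 5.24 through 5.62 to 5.74. The difference was 0.33 (SE 0.11, limma adjusted p = 0.859), and 0.20 without replicate 1.

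Of the other members, Cldn2 (a cation pore) differed by 0.43 and Cldn8 (a barrier claudin of the distal nephron) by 0.25 at an unadjusted p under 0.05, both not above background in the controls. Cdh1 measured 7.92, 7.71 and 7.69 with AMH against a control range of 6.47 to 7.92, and the groups overlapped. Cldn9, the neighbour of Cldn6 on chromosome 10, was not above background and did not meet the criteria.

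**Figure D2:**
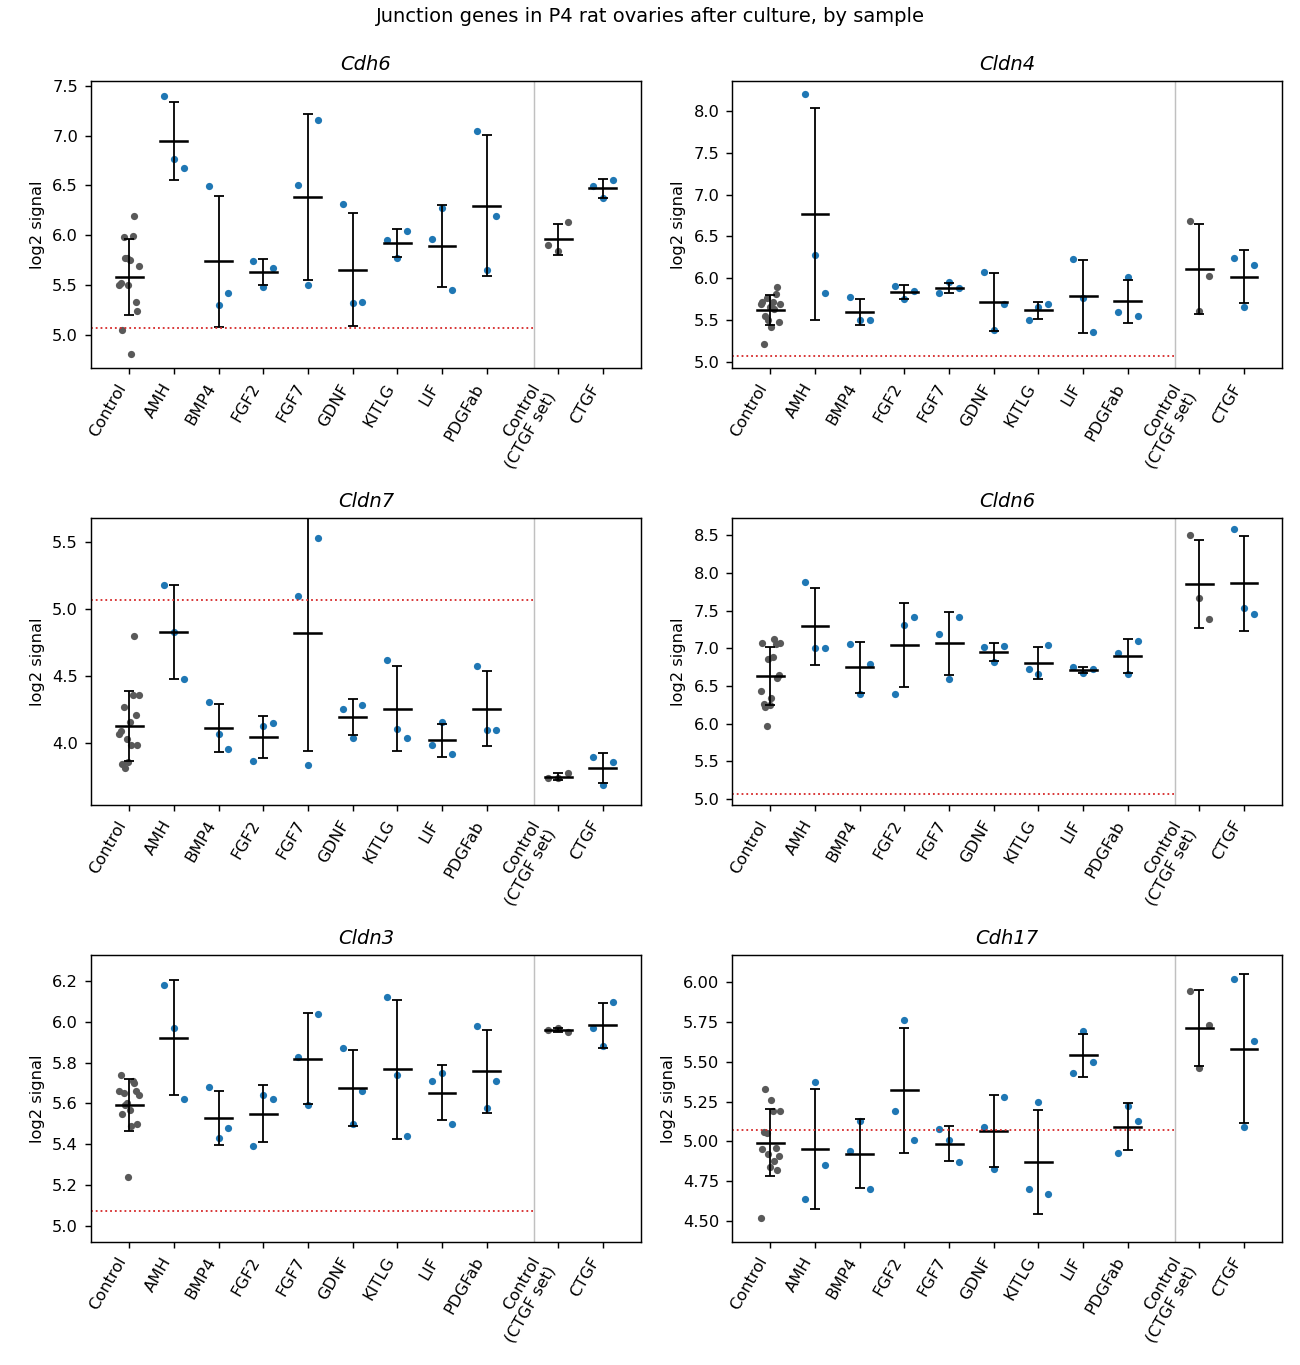
Log2 signal (vertical axis) of 6 genes in every sample (points), by group (horizontal axis), with the group mean and SD (bars) and the background level of 5.07 (dotted). The 3 AMH samples lie above all 14 controls for Cdh6 and the 3 LIF samples do so for Cdh17, while Cldn4 with AMH spreads from 5.82 to 8.21; the CTGF set, right of the line, is on its own scale.

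A list of 12 measured epithelial and tubal markers, 7 of them above background, was read beside the members. None of the 12 passed the adjusted threshold with AMH, 6 met the criteria as higher, 1 as lower and 5 did not meet them. The list was drawn up with earlier results of these data known. It holds genes that the study itself lists for AMH (Tspan1, Pax8 and Spint1 as higher, and Krt19 as lower). Its count in either direction is therefore not independent evidence. Elf3, an ETS factor of epithelia, measured 5.91, 5.80 and 5.12 with AMH against 3.97 through 4.31 to 5.05 in the controls, a difference of 1.27 (SE 0.26, limma adjusted p = 0.236). All 3 lay above the highest control. Tspan1, a tetraspanin, measured 6.51, 6.28 and 5.87 against 4.57 through 5.02 to 5.66, a difference of 1.21 (limma adjusted p = 0.294). The other 4 higher markers were Ehf (0.77), Epcam (0.60), Pax8 (0.59) and Spint1 (0.50). Krt19, a keratin of simple epithelia, was the lower one (-0.43). The summed linear level of the list ran from 3893 to 5120 with AMH and from 3738 to 6011 in the controls, with Krt18, Elf3, Grhl2, Pax2 and Tspan1 not above background in the controls. The part of a differing share of epithelium in the junction gene values was not tested.

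Genes for proteins that work beside the members were counted in the same way. The lists are short. With 2.15% of all probe sets meeting the criteria with AMH, counts of 0 do not show that nothing changed. With AMH, 0 of 8 catenin and plaque genes, 0 of 16 other tight junction genes, 0 of 7 nectins and other receptors, 0 of 6 desmosome genes and 0 of 11 transcription factors that act on Cdh1 met the criteria. The medians of these lists were -0.07, -0.10, 0.00, 0.11 and -0.01, beside a median of 0.039 over the 37 members and -0.006 over all probe sets.

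FGF7, a growth factor for epithelia, gave 2 members by the criteria, Cdh6 and Cldn7, 5.41% of members against 4.16% of all probe sets. Cdh6 measured 6.50, 5.50 and 7.16, and Cldn7 measured 5.10, 3.84 and 5.53. In both genes replicates 1 and 3 were above the highest control and replicate 2 was below the control mean. The differences were 0.81 for Cdh6 (SE 0.29, limma adjusted p = 0.374) and 0.69 for Cldn7 (SE 0.20, limma adjusted p = 0.211). Without replicate 3 they were 0.42 and 0.34 and 0 members met the criteria. Without replicate 2 Cldn7 was 1.18 with an adjusted p of 0.00400 and 4 members met the criteria, against 4.5% of all probe sets. Elf3 followed the same samples, at 5.37, 4.04 and 6.14, and Tspan1 at 5.41, 4.67 and 6.67. Of the epithelial markers 4 were higher by the criteria and 1 lower, and none passed the adjusted threshold. AMH and FGF7 samples were compared with the same controls. Set directly against each other, AMH minus FGF7 was 0.56 for Cdh6 (95% interval -0.18 to 1.31), 0.01 for Cldn7 (-0.52 to 0.54) and 0.89 for Cldn4 (0.27 to 1.51), with limma adjusted p = 1.0 in each.

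PDGFab, a mitogen of stromal cells, gave Cdh6 alone by the criteria (2.7% of members against 5.33% of all probe sets). It measured 7.05, 5.65 and 6.19, and replicate 1 alone exceeded the highest control. The difference was 0.72 (SE 0.29, limma adjusted p = 0.352), and 0.34 without replicate 1, when 0 members met the criteria. Without control 2, 2 members met them, 1 higher and 1 lower, against 5.92% of all probe sets. Of 8 stromal markers, 0 passed the adjusted threshold with PDGFab, while 4 were higher and 1 was lower by the criteria. The difference of Pdgfra, a platelet-derived growth factor receptor gene, was 0.44 (limma adjusted p = 0.0999).

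In the CTGF set Cdh6 again met the criteria, the only member to do so (2.7% of members against 0.761% of all probe sets). It measured 6.49, 6.37 and 6.55 with CTGF, a matrix-associated factor, and 5.90, 5.84 and 6.13 in its 3 controls. The groups did not overlap, and the difference was 0.51 (SE 0.10, 95% interval 0.27 to 0.75, limma adjusted p = 1.0). The exact permutation test gave p = 0.1, the smallest that 3 against 3 allows. Neither this test nor the fit used the pairing by replicate number that is described below. With that number as a block, 1 member still met the criteria, against 2.0% of all probe sets. Across members, 3 genes lay wholly above their controls with CTGF (Cdh6, Cdh13 and Cdh16) and 2 wholly below (Cldn9 and Cldn24), where 3.65% and 4.54% of all probe sets did so. Cdh13 measured 8.65, 8.59 and 8.73 against 8.53, 8.27 and 8.55, and Cdh16, Cldn9 and Cldn24 were not above background. The stromal list had 0 of 8 genes meeting the criteria here, and of the epithelial list 1 of 12 did, Pax8, which was higher by 0.52.

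Cdh6 was higher than the controls in all 9 comparisons, by 0.05 to 1.37, and met the criteria in 4. The 8 growth factors of the larger set share their controls, so these are not independent. The study's own list for FGF2 has Cdh6 as lower. In the other treatments its values were 6.49, 5.30 and 5.42 with BMP4, 5.74, 5.48 and 5.67 with FGF2, 6.31, 5.32 and 5.33 with GDNF, 5.95, 5.77 and 6.04 with KITLG, and 5.96, 6.27 and 5.45 with LIF. Single samples of BMP4, GDNF and LIF exceeded the highest control of 6.19. In AMH, PDGFab, BMP4 and GDNF the highest Cdh6 sample was replicate 1, at 7.40, 7.05, 6.49 and 6.31. These 4 samples were picked out after their values were seen. Over all probe sets, as deviations from the group means, each correlated best with control 2 (r = 0.779, 0.357, 0.506 and 0.403). PDGFab replicate 1 had nearly the same r with control 1 (0.34). With FGF2 the highest was also replicate 1 (5.74), which correlated best with control 1 (r = 0.74). With FGF7 and KITLG the highest was replicate 3, and with LIF it was replicate 2. Cdh6 in control 2 itself was 5.52, below the control median of 5.61. The part of what the samples matched to control 2 share in the Cdh6 values was not tested. Cldn6 was likewise higher in all 9, by 0.01 to 0.67, and met the criteria with AMH only, though its differences between growth factors were not called. Cldn9, which was not above background, was lower in all 9 (-0.21 to -0.01).

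LIF, a cytokine, gave Cdh17 (2.7% of members against 3.82% of all probe sets). Cdh17 is the liver-intestine cadherin, with a cytoplasmic tail too short to bind catenins. It measured 5.43, 5.69 and 5.50 with LIF and 4.52 through 4.96 to 5.33 in the controls, where it was not above background. All 3 LIF samples were above every control, as for 0.355% of all probe sets, and the difference was 0.55 (SE 0.15, limma adjusted p = 0.142, exact permutation p = 0.00147). FGF2 gave Cdh2 (2.7% against 6.79%), which measured 7.58, 7.32 and 7.24 against 6.38 through 7.10 to 7.33, a difference of 0.30 (SE 0.14, limma adjusted p = 0.401). Only replicate 1 was above the highest control. No member met the criteria with FGF2 once replicate 2 or any of controls 4, 11, 12, 13 and 14 was left out. Without replicate 3 (8.23% of all probe sets) or control 1 (7.91%) 2 did, and 4 did without replicate 1 (5.44%). With LIF, 2 did without replicate 2 (4.08%) or 3 (5.46%), 1 higher and 1 lower. The same held without control 3 (3.71%), 9 (3.95%) or 14 (3.68%). FGF2 also had the 1 marker that passed the adjusted threshold in any list and comparison, the mesothelial uroplakin Upk1b, which rose by 1.24 (SE 0.29, limma adjusted p = 0.0260).

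BMP4, GDNF and KITLG gave 0 members by the criteria, against 4.48%, 5.99% and 4.44% of all probe sets. Without GDNF replicate 1 the count was 1 (3.93% of all probe sets) and without KITLG replicate 3 it was 3 (5.73%), 2 of them lower. With GDNF, 5 genes were higher at an unadjusted p under 0.05 (Cdh8, Cldn14, Cldn17, Cldn18 and Cldn22), by 0.16 to 0.32. That was 13.5% of members, less than the 17.1% of all probe sets in either direction. None of the 5 was above background in the controls. Among the nectins and other adhesion receptors 3 genes were lower with GDNF by the criteria, with differences of -0.39 for Nectin3, -0.38 for Nectin2 and -0.50 for Ncam1 (limma adjusted p = 0.0683, 0.195 and 0.287).

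Direct contrasts between the 8 growth factors, 28 pairs and 1036 tests of members, gave 1 at an adjusted p under 0.05. It was Cldn17, at 4.65, 4.42 and 4.58 with GDNF and 4.11, 4.13 and 4.10 with LIF, a difference of 0.44 (SE 0.10, limma adjusted p = 0.0199), where 3.79% of all probe sets differed between these treatments, so that 1 member of 37 (2.7%) was no more than the background share. All 6 values lay under the background level, and no member was called between growth factors once GDNF replicate 1 or 3 or LIF replicate 1 or 2 was left out. The count was 3 without AMH replicate 3, 4 without FGF7 replicate 2 and 2 without GDNF replicate 2. The shares of all probe sets in these refits are not given, so the counts are not read as a result about the members. For 2 further contrasts, named after their values were seen, AMH minus GDNF was 1.29 for Cdh6 (95% interval 0.55 to 2.04, limma adjusted p = 0.0777) and 1.05 for Cldn4 (0.43 to 1.68, limma adjusted p = 0.0839).

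In the controls, 105 pairs of the 15 members above background were set against each other. None reached an adjusted p under 0.05 by Pearson or Spearman (100000 permutations), and 12 by Pearson and 11 by Spearman had an unadjusted p under 0.05. The highest was Cdh5 with Cldn5, the cadherin and claudin of endothelium (r = 0.786, rho = 0.749, permutation p = 0.00053 and 0.0028, adjusted 0.0556 and 0.187). Leaving out the 2 samples farthest from the median gave r = 0.725. The next were Cdh15 with Cldn5 (0.702), Cdh6 with Cldn1 (0.684), Cdh13 with Cdh15 (0.638) and Cdh5 with Cdh15 (0.632), which without those 2 samples were 0.544, 0.487, 0.414 and 0.263.

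The lowest r was that of Cldn15 with Cdh5, -0.789 (rho = -0.679, permutation p = 0.00131 and 0.00934, adjusted 0.0688 and 0.196), which did not pass adjustment. It was -0.881 without the 2 samples farthest from the median of Cdh5. Cldn15 with Cldn5 gave -0.610 (adjusted p = 0.233), and -0.147 without the 2 farthest samples. Controls 1 and 9, chosen after the values were seen, had Cdh5 at 5.65 and 6.11 and Cldn15 at 7.88 and 8.22, and without both of them the r of Cldn15 with Cdh5 was -0.450. The remaining low pairs were Cdh2 with Cldn6 (-0.616), Cldn12 with Cldn15 (-0.500, and 0.408 without the 2 farthest samples) and Cdh2 with Cldn3 (-0.452). The negative pairs of Cldn15 with Cldn5 and Cldn12 rested on 2 samples.

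**Figure D3:**
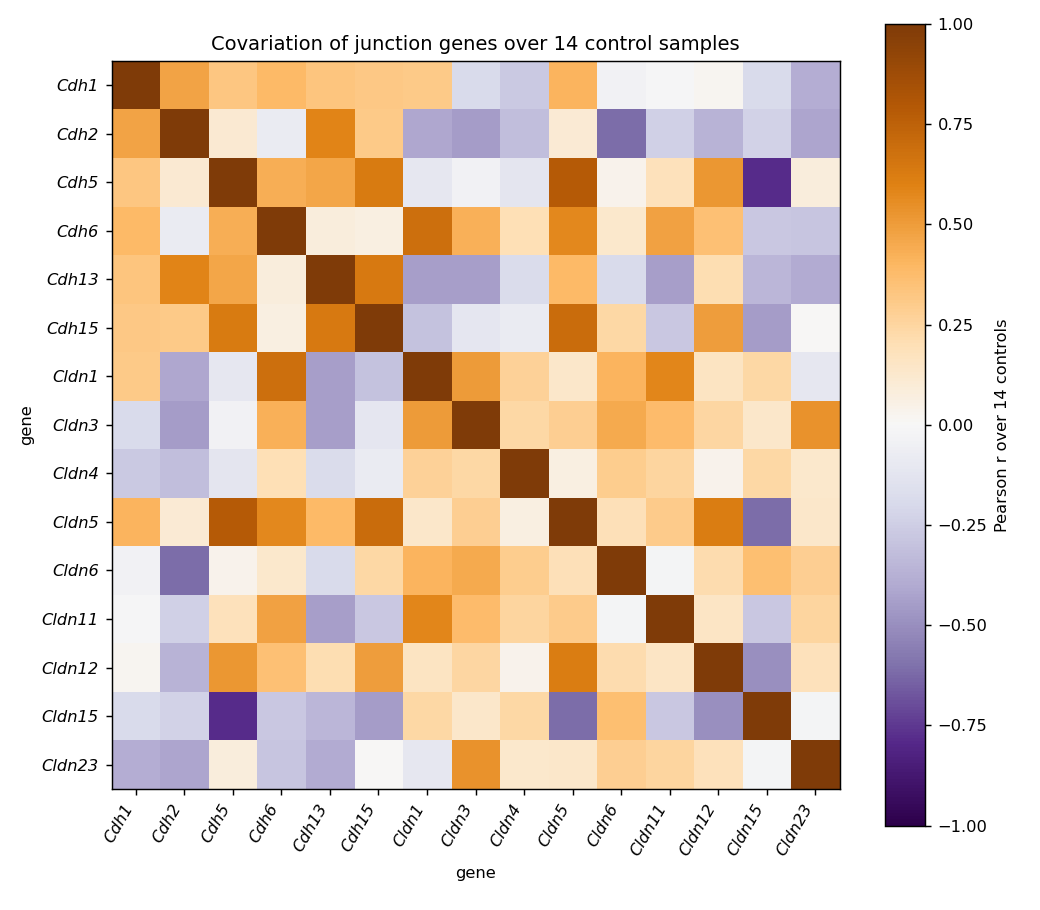
Pearson r (colour) over the 14 controls for each pair of the 15 genes above background (both axes). Cdh5 with Cldn5 is the highest at 0.786 and Cdh5 with Cldn15 the lowest at -0.789, and no pair reached an adjusted p under 0.05.

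Some treated samples, picked out after their values were seen, had levels like those of control 1. KITLG replicate 1, LIF replicate 1 and FGF2 replicate 1 had the lowest Cdh5 of the treated samples, 5.36, 6.03 and 5.89. Their Cldn5 was 6.35, 6.44 and 6.74, and their Cldn15 was 7.53, 7.67 and 7.59. Over all probe sets each of the 3 correlated best with control 1 (r = 0.615, 0.694 and 0.74). In each of those groups this sample was the lowest of the 3 for Cdh5 and Cldn5 and the highest for Cldn15. In the CTGF set, Cldn15 measured 8.30, 7.49 and 7.13 in controls 1 to 3 and 8.21, 7.47 and 7.13 in CTGF samples of the same numbers, and Cldn6 measured 8.50, 7.67 and 7.39 beside 8.58, 7.54 and 7.46. The spread of these claudins between numbers there was larger than their difference between CTGF and control.

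The members were also set against the mean standardized level of 7 lists of cell type markers over the 14 controls, a comparison added after the data had been seen, and 6 of 105 relations reached an adjusted p under 0.05 by Pearson and none by Spearman. Cldn15 followed the mesothelial surface list (6 genes, such as the uroplakin Upk1b and the transcription factor Bnc1), with r = 0.905 and rho = 0.802 (permutation p = 8e-05 and 0.00102, adjusted 0.0084 and 0.0693), and 0.824 without the 2 farthest samples, controls 1 and 9. Cdh5 followed the endothelial list (r = 0.791, rho = 0.749, adjusted p = 0.026 and 0.0693, and 0.665 without the 2 farthest), and opposed the mesothelial list at -0.849, which was -0.438 without the 2. Cldn1 followed the macrophage and blood list (r = 0.759, rho = 0.785, adjusted p = 0.0342 and 0.0693, and 0.789 without the 2). Cldn5 followed the stromal list (r = 0.775, rho = 0.763, adjusted p = 0.0199 and 0.0693, and 0.590 without the 2). With the endothelial list its r was 0.634 (rho = 0.574, adjusted p = 0.134 and 0.264), which did not pass. Cldn15 with the endothelial list gave -0.571 (adjusted p = 0.173), and -0.246 without controls 1 and 9. Cldn12 with oocyte markers (0.750) was 0.290 without the 2 farthest samples. Cdh1 with the epithelial list gave 0.700 and Cdh6 0.604 (adjusted p = 0.0702 and 0.156), while Cldn4, Cldn6 and Cldn3 gave 0.170, 0.123 and 0.0463. The summed linear level of the mesothelial list ran from 2164 to 4505 in the controls and that of the endothelial list from 761 to 1200.

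**Figure D4:**
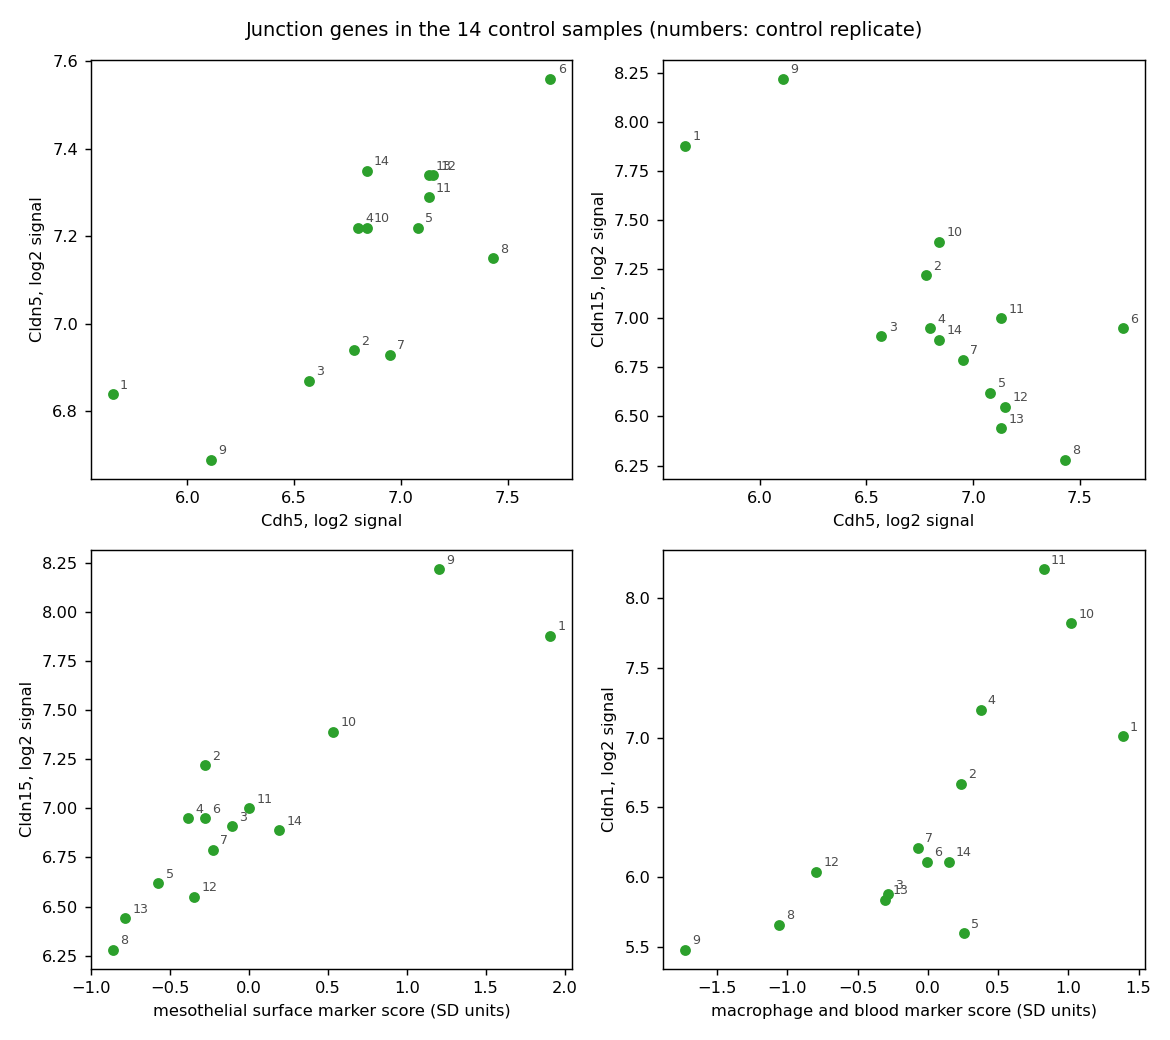
The 14 controls (points, numbered by replicate): Cldn5 and Cldn15 against Cdh5 (log2 signal on both axes), Cldn15 against the mesothelial surface marker score and Cldn1 against the macrophage and blood marker score (scores in SD units, log2 signal on the vertical axis). Controls 1 and 9 are lowest for Cdh5 and highest for Cldn15 and the mesothelial score, and controls 10 and 11 are highest for Cldn1.

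For the 4 members above background with the largest SD, the genes most like them over the 14 controls were as follows. Those of Cdh5 were Rasgrp3 (r = 0.943), Esam (0.922), Cd93 (0.920), Mcam (0.916) and Mecom (0.911). For Cldn15 they were Bcam (0.951), Itgb8 (0.947), Megf6 (0.935), Lrp2 (0.928) and Sfrp2 (0.925). Cldn1 was most like Ptrhd1 (0.899), RT1-DMb (0.898), Tmem37 (0.894), Ifi47 (0.889) and Nedd8 (0.885), and Cldn6 like Grifin (0.861), Jagn1 (0.839), Steap1 (0.834), Fam110a (0.833) and Tmem171 (0.83). These are descriptions over 14 samples, taken as the highest of all genes with 1 symbol.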

How the data were processed

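The deposited values are log2 signals: the authors scanned Affymetrix arrays and preprocessed them with Partek and RMA, with an adjustment for probe GC content, separately for 38 and 6 arrays. Genes were named from the platform annotation, and 15097 of 27342 probe sets carried 1 symbol. The members and the gene lists were chosen with earlier results of these data known. Members named in the text are those that met a call, lay outside the control range, were above background, or stood in the 5 highest and 5 lowest pairs. Further genes were named after their values were seen. Each treatment was compared with its controls by limma 3.58.1 (R 4.3.3), 9 groups in 1 fit for the larger set, with Benjamini-Hochberg adjustment over all probe sets. The code was tested on simulated data. Single genes had exact two-sided permutation tests over samples. No value was converted between sets. In the CTGF set, samples with the same replicate number deviated together (r from 0.623 to 0.842 over all probe sets), so the numbers pair them, and the blocked fit changed no call. Culture days were not labelled, so day could not be fitted. The methods give fewer GDNF samples than the labels, which were followed. The number of arrays limits the precision.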

Additional observations from a re-analysis of the deposited data

Results flagged for a closer look

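Cldn17 differed between GDNF and LIF by 0.44 on the log2 scale (SE 0.10, limma adjusted p = 0.0199), the 1 direct contrast of a member past the threshold. In this contrast 3.79% of all probe sets were called, and 1 of 37 members is 2.7%, no more than that share. It was selected because the difference between 2 treatments was itself tested. It was not called without GDNF replicate 1 or 3 or without LIF replicate 1 or 2. All of its values in both groups were below the background level. The cause was not tested.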

How the results depend on the processing

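None of the 15 named differences changed direction in any alternative run. Of 321 alternative values for the 15 named differences, 315 kept their direction and their side of the adjusted threshold and 6 came to lie past it: Cdh6 with AMH when the AMH samples and controls were fitted alone (1.37, adjusted p = 0.0351) and by the methods' t-test on linear values (1.36), Cdh6 and Cldn7 with FGF7 under array quality weights (0.85 and 0.87), Cldn4 with AMH without replicate 3 (1.63) and Cldn7 with FGF7 without replicate 2 (1.18). Counts of members past the adjusted threshold, 0 in each comparison, became 1 for AMH in the fit of AMH and controls alone (0.0366% of all probe sets) and by the methods' t-test on linear values (0.0293%), 4 for FGF7 (4.24%) and 3 for GDNF (20.6%) under array quality weights, and 2 for GDNF without controls 12, 13 and 14 (11.5%). By the study's criteria FGF2 gave 0 in the fit with controls alone and by the methods' t-test on log2 values. It also gave 0 without controls 12, 13 and 14, and 2 under array quality weights (5.79% of all probe sets). With the dimmest share of 0.2 of probe sets left out, AMH gave 4 (2.64%) and FGF7 1 (5.16%). FGF7 gave 3 under array quality weights (5.62%) and 3 without controls 12, 13 and 14 (4.22%). Under these weights GDNF gave 1 (7.97%) and PDGFab gave 1, a lower one (6.34%). LIF (3.35%) and PDGFab (4.86%) each gave 1 higher and 1 lower with controls alone. PDGFab did so too after repeated quantile normalization (5.2%). Of the 1036 tests of members between growth factors, 9 were called when the controls were left out of the fit, all of them with GDNF. Over all probe sets 2.03% of such tests were called then, against 0.621% with the controls. The 9 are calls of tests and not a number of genes. The cause of these shifts was not tested.

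With the replicate number as a block the criteria gave 6 members higher and 1 lower for AMH (2.25% of all probe sets). They gave 0 for FGF2 (4.95%) and 3 higher and 1 lower for FGF7 (5.29%). For GDNF (7.57%) and LIF (2.73%) they gave 1 higher and 1 lower each. In the larger set the numbers do not pair the samples (r of same-numbered deviations from -0.555 to 0.74, and 3 of 24 treated samples correlating best with the control of their own number, the first replicates of FGF2, KITLG and LIF, each with control 1). In the CTGF set the block changed no call, Cdh6 having 0.51 with an adjusted p of 0.344.

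Leaving out 1 sample at a time gave 0 to 1 members past the adjusted threshold for AMH, 0 to 1 for FGF7 and 0 to 2 for GDNF. The highest counts came without AMH replicate 3 (0.011% of all probe sets), FGF7 replicate 2 (0.0805%) and, for GDNF, control 12 (8.46%). By the criteria the counts were 2 to 7 for AMH, 0 to 4 for FGF2, 0 to 4 for FGF7 and 0 to 1 for GDNF. They were 0 to 3 for KITLG, 1 to 2 for LIF and 0 to 2 for PDGFab. At the highest of these counts 4.29% of all probe sets met the criteria for AMH, 5.44% for FGF2 and 4.5% for FGF7. The share was 3.93% for GDNF, 5.73% for KITLG, 3.68% to 5.46% for LIF and 5.92% for PDGFab. Between growth factors 0 to 4 members differed, 0 without GDNF replicate 1 or 3 or LIF replicate 1 or 2. The counts between growth factors have no share of all probe sets beside them. Another probe set per gene could not be tried because each member has 1. Members not above background, 22 of 37, are limited by signal.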
